A study of Mus musculus with 63 samples.

Results

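Heat shock proteins and their co-chaperones were examined across 4 sorted cell populations of mouse cortex, as 10 named genes among the 56980 genes of the deposited count tables. The genes were taken by symbol: Hspa1a, Hspa1b, Hsp90aa1, Dnajb1, Hsph1, Hspb1, Hspa8, Hspe1, Hspd1 and Hspa5. Each had counts in each population and passed the minimum of 10 counts over the libraries of every fit.

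The study compared female C57BL/6J mice that had received a burn of 7 to 8% of the body surface with mice that had received a sham injury, 5 weeks after the injury. The paper calls this burn non-severe. It gives the age of the mice as 12 weeks when they were housed, before the surgery. Burn and sham mice alike carried adeno-associated viruses injected into the motor cortex, one with eGFP under the CaMKII promoter and one with mRuby2 under the mDlx enhancer. The cortex was dissociated with enzymes, cleared of myelin with magnetic beads, stained for viability and sorted by flow cytometry. From the motor cortex came a population positive for eGFP alone (the CaMKII population, meant as excitatory neurons) and one positive for both fluorophores (the double-positive population, meant as inhibitory neurons), while the cortex caudal to it gave ACSA2-positive cells (astrocytes) and CD11b-positive cells (microglia). The CaMKII population had 4 burn and 6 sham mice, the double-positive population 9 and 7, the ACSA2 population 9 and 8, and the CD11b population 8 and 7. These were 58 of 63 libraries, from 17 of 18 mice. Mouse 3 and the double-positive library of mouse 8, which held 331215 counts, were left out. The study left out the same libraries. Each library is 1 mouse, so p-values of tests within a population measure the spread among mice. The fits of all 58 libraries had no term for the mouse, although 9 mice gave all 4 populations. Their p-values measure the spread among libraries and ignore that pairing.

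Heat shock proteins are molecular chaperones, which bind unfolded proteins, help them fold and keep them from clumping. In resting cells heat shock factor 1 is held inactive, and when proteins unfold it binds heat shock elements and switches on the inducible chaperones, above all the Hsp70 genes Hspa1a and Hspa1b. Enzymatic dissociation of brain tissue is known to set off this response and the immediate early genes. Chaperones of the endoplasmic reticulum answer to a separate pathway, the unfolded protein response.

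The stretch of 250 bases before the transcription start showed which members carry these elements, and 5 of the 8 members with a RefSeq promoter entry held a heat shock element of 2 units, searched as GAANNTTC or TTCNNGAA on both strands. The 5 were Hspa1a, Hspa1b, Hsph1, Hspb1 and Hspe1, and 12.8% of 32851 windows of the same length held such a match. The 2 patterns can overlap each other, as they do in Hspe1. Dnajb1 and Hspd1 held none of the motifs searched in this window. Hspd1 stands head to head with Hspe1, and its window (chr1:55088244-55088493) does not cover the Hspe1 matches. Promoter entries for Hsp90aa1 and Hspa8 were not used here. The sequences of 5 promoters are given on the coding strand, 5′ to 3′ (RefSeq, GRCm38.p6), with the matches in capitals. They were chosen to show the main inducible Hsp70, the other members with a heat shock element (Hspa1b being nearly the same as Hspa1a) and the gene with the endoplasmic reticulum element.
Hspa1a (chr17:34972157-34972406, minus strand): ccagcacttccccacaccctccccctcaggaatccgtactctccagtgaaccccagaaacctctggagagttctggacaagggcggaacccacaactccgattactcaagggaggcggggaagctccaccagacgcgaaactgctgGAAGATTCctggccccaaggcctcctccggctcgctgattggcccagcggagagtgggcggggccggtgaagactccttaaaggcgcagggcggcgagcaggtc
Hsph1 (chr5:149636337-149636586, minus strand): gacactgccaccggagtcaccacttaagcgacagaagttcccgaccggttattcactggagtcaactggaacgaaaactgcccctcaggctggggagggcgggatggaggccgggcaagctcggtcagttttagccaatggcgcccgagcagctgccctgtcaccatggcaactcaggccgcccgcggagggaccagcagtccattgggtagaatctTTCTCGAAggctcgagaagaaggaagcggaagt
Hspb1 (chr5:135887669-135887918, plus strand): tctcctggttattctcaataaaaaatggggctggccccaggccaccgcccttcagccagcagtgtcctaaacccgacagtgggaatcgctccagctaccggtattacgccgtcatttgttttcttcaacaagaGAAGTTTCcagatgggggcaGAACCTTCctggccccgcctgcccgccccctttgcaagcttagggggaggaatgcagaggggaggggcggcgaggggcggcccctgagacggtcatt
Hspe1 (chr1:55087898-55088147, plus strand): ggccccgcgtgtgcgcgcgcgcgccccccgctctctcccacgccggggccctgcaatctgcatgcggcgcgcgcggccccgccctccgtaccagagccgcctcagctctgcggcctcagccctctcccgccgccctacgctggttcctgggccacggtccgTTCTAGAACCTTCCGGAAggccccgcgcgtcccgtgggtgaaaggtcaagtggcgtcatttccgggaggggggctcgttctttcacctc
Hspa5 (chr2:34771840-34772089, plus strand): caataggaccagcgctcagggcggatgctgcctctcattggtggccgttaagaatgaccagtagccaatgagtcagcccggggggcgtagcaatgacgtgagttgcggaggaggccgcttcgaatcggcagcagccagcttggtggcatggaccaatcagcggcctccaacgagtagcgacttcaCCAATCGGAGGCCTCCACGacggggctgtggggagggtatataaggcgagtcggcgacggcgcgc

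In Hspa1a the match lay 104 to 97 bases before the start and in Hsph1 33 to 26 bases before it. Hspb1 had a match at 117 to 110 and another at 97 to 90 bases. Hspe1 alone among the 8 held the longer form of 3 units, GAANNTTC followed after any pair of bases by GAA, found in 0.4657% of all windows, within the run from 89 to 72 bases before its start. Hspa5 held the endoplasmic reticulum stress response element, CCAAT and CCACG with 9 bases between them, at 65 to 47 bases, a pattern found in 0.113% of windows. The Hspa1a and Hspa1b windows were identical at 247 of 250 positions. A match is a run of letters and not a measured binding site.

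The sorted populations did not hold the RNA of their labelled cells alone. In the CaMKII libraries the 10 astrocyte markers summed to 13163 to 24637 CPM (a gene's count scaled to the total of its library, as if each library held 1000000 counts), the 8 endothelial markers to 4159 to 11732 CPM and the 8 neuron markers to 325 to 536 CPM, and Slc17a7, the defining marker of excitatory cortical neurons, lay at 0.608 to 32.3 CPM. In the double-positive libraries the 10 microglia markers summed to 19971 to 36002 CPM, near the 23221 to 35978 CPM of the CD11b libraries, against 18.4 to 52.7 CPM for the neuron markers, and Gad1, the defining marker of inhibitory neurons, lay at 0 to 2.08 CPM. The ACSA2 libraries held astrocyte markers at 35326 to 49661 CPM. No marker list had a gene at 0 in all libraries of a population. The populations are therefore called by their sort below. Library totals ran from 13346143 to 134703744 counts with a median of 24339895, so that 3 counts corresponded to 0.0223 to 0.225 CPM. Fewer cells of a type and less RNA per cell cannot be told apart in such bulk libraries.

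Together the 10 genes took a median of 0.401% of counts in the double-positive population, 0.371% in CD11b, 0.363% in CaMKII and 0.174% in ACSA2. Set beside each other per length of exon, Hspa8, the constitutive Hsp70, was the most abundant member in all 4 populations, at a mean of 299 CPM per kb in CaMKII, 354 in double-positive, 233 in ACSA2 and 378 in CD11b. Hspa5, the Hsp70 of the endoplasmic reticulum also known as BiP, came second in double-positive, CD11b and ACSA2 (244, 232 and 68.1 CPM per kb) and sixth in CaMKII (86.6). In CaMKII the inducible Hspa1b and Hspa1a followed Hspa8 at 208 and 186 CPM per kb, with the small heat shock protein Hspb1 next at 171. Hspb1 was the least abundant member in the double-positive and CD11b populations, at 5.58 and 3.94 CPM per kb.

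**Figure D1:**
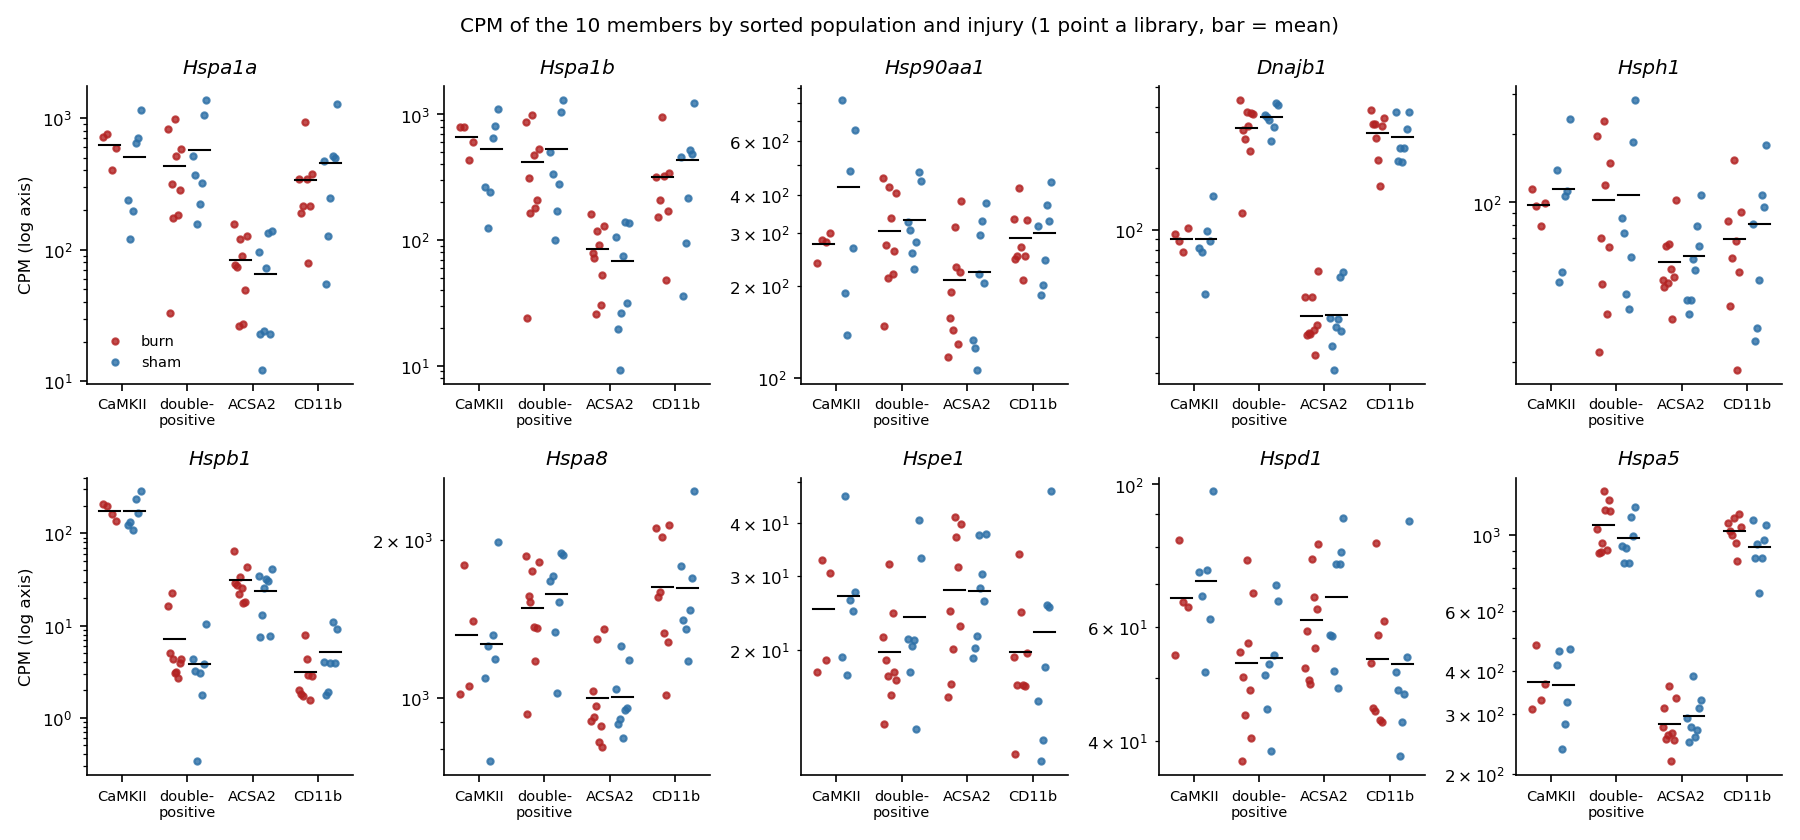
CPM of each member (log axis) in the libraries of the 4 populations, 1 point per mouse, with burn and sham mice in separate colours and a bar at the mean. Hspa1a and Hspa1b spread widely within each population, Hspb1 lies highest in CaMKII, and Dnajb1 and Hspa5 lie higher in the double-positive and CD11b populations than in the other pair.

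Among the inducible cytosolic chaperones, Hspa1a and Hspa1b, the heat-inducible Hsp70 genes, spread widely from mouse to mouse. The level of Hspa1a ran from 120 CPM in mouse 15 through a median of 617 to 1144 CPM in mouse 19 in the CaMKII population (553 ± 314, SD, n = 10), and from 33.3 CPM in mouse 7 through 345 to 1380 CPM in mouse 19 in the double-positive population (495 ± 381, SD, n = 16). In CD11b it ran from 55.2 through 345 to 1266 CPM (392 ± 327, SD, n = 15) and in ACSA2 from 12.2 through 73.6 to 158 CPM (74.8 ± 48.2, SD, n = 17). Mouse 7 stood apart at the low end of the double-positive libraries, where the next lowest, mouse 15, held 157 CPM. In order of mean level the populations were CaMKII, double-positive, CD11b and ACSA2, and each neighbouring pair overlapped in range.

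Hspa1b, its near-identical neighbour on chromosome 17, took the same order, at 582 ± 312 CPM in CaMKII, 469 ± 387 in double-positive, 371 ± 334 in CD11b and 76.5 ± 48.6 in ACSA2. Of the 50-base windows of Hspa1a transcripts, 58.8% also occurred in Hspa1b, so the split of reads between the genes is uncertain, and the ratio of Hspa1a to Hspa1b ran from 0.717 in an ACSA2 library to 1.66 in a CD11b library. Gm20481 overlaps 19.0% of the Hspa1a exons on the opposite strand, and the strand setting of the counting is not given in the sources used here.

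Hsp90aa1 and Hsph1 differed less in mean level between populations. Hsp90aa1, the inducible Hsp90, had medians of 281 CPM in CaMKII (138 to 823), 293 in double-positive (147 to 474), 270 in CD11b (187 to 442) and 205 in ACSA2 (106 to 380). Hsph1, a nucleotide exchange factor of the Hsp110 kind that resets Hsp70, averaged 108 ± 53.0 CPM in CaMKII, 105 ± 79.7 in double-positive, 74.3 ± 46.4 in CD11b and 56.4 ± 22.4 in ACSA2. The ranges of all 4 populations overlapped for both genes.

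Dnajb1, the Hsp40 that delivers substrates to Hsp70, was highest in double-positive and CD11b. It ran from 121 through a median of 350 to 433 CPM in the double-positive population (331 ± 77.3, SD, n = 16) and from 163 through 310 to 387 CPM in CD11b (292 ± 69.4, SD, n = 15), against 48.7 through 88.2 to 146 CPM in CaMKII (90.6 ± 24.7, SD, n = 10) and 20.7 through 33.7 to 63.1 CPM in ACSA2 (38.2 ± 12.9, SD, n = 17). No CaMKII library reached the lowest CD11b library, while CaMKII overlapped both ACSA2 and double-positive, where mouse 7 was the lowest.

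Hspb1 (Hsp27 in human), a small heat shock protein that holds unfolded proteins and acts on the actin skeleton, had the widest spread between populations. It ran from 110 through a median of 165 to 288 CPM in CaMKII (176 ± 56.0, SD, n = 10), from 7.58 through 27.5 to 64.6 CPM in ACSA2 (27.8 ± 14.03, SD, n = 17), from 0.335 through 3.88 to 22.4 CPM in double-positive (5.75 ± 5.79, SD, n = 16) and from 1.56 through 2.89 to 11.1 CPM in CD11b (4.06 ± 2.98, SD, n = 15). All CaMKII libraries lay above all ACSA2 libraries, and the double-positive range overlapped both neighbours. About 50.1% of the 50-base windows of Hspb1 also occur in other genes, mostly the pseudogene Hsp25-ps1. Such shared windows made up 47.5% in Hsp90aa1, 42.1% in Hspd1, 39.4% in Hspa8 and 22.8% in Hspe1, so the levels and ranks of these members are uncertain too, against 0.412% in Dnajb1 and 0% in Hsph1 and Hspa5.

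Of the constitutive and organelle chaperones, Hspa5 followed Dnajb1. It ran from 829 through a median of 971 to 1345 CPM in double-positive (1031 ± 165, SD, n = 16) and from 676 through 998 to 1153 CPM in CD11b (980 ± 130, SD, n = 15), against 237 through 348 to 478 CPM in CaMKII (366 ± 83.7, SD, n = 10) and 218 through 274 to 388 CPM in ACSA2 (288 ± 45.2, SD, n = 17). The lowest CD11b library exceeded the highest CaMKII library, whereas CaMKII and ACSA2 overlapped. Hspa8 averaged 1627 ± 410 CPM in CD11b, 1524 ± 303 in double-positive, 1287 ± 367 in CaMKII and 1000.2 ± 170.2 in ACSA2. Hspd1 and Hspe1, the mitochondrial Hsp60 and its lid Hsp10, differed least, at means of 53.2 to 69.1 CPM and 20.9 to 27.6 CPM, with overlap between every pair of neighbours. These genes stand head to head on chromosome 1 with exons that overlap on opposite strands.

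The populations were then compared in a single edgeR quasi-likelihood fit of all 58 libraries with batch, treatment and population as terms, in which a gene counted as called when its log2 fold change (log2FC) was 1 or more in either direction and its Benjamini-Hochberg adjusted p did not exceed 0.05. The study did not make this comparison. The neuron sorts and the glial sorts came from different regions and tubes of cortex, so region and sort cannot be told apart between them.

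Against ACSA2, the CaMKII population differed in 4 of 10 members and was higher in each, where 18.4% of 33150 genes were called. Hspa1a was higher by a log2FC of 2.56 ± 0.41 (SE; adjusted p = 8.94e-07), Hspa1b by 2.60 ± 0.44 (adjusted p = 2.36e-06) and Hspb1 by 2.45 ± 0.34 (adjusted p = 2.00e-08) in the edgeR fit. Dnajb1 lay just past the fold threshold at 1.01 ± 0.17 and fell short of it at 0.96 with mouse as a block, at 0.98 in a fit of these populations alone, and at 0.98 to 1.00 without mouse 7, 10, 12, 13, 19 or 21. The median log2FC of the members was 0.52, beside -0.03 over all genes.

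The double-positive population and CD11b each differed from ACSA2 in the same 5 members. Against ACSA2 the double-positive population was higher in Dnajb1 (log2FC 3.07 ± 0.16, edgeR adjusted p = 8.39e-26), Hspa1a (2.80 ± 0.39, adjusted p = 5.34e-09), Hspa1b (2.73 ± 0.41, adjusted p = 5.26e-08) and Hspa5 (1.76 ± 0.10, adjusted p = 3.03e-24), and lower in Hspb1 (-2.32 ± 0.31, adjusted p = 3.08e-09). ACSA2 against CD11b gave Dnajb1 -2.84 ± 0.16, Hspa1a -2.20 ± 0.38, Hspa1b -2.09 ± 0.40, Hspa5 -1.67 ± 0.10 and Hspb1 2.87 ± 0.33. These 5 of 10 members stood where 52.5% and 53.8% of all genes were called, so the share of members was near the background. The comparisons share the ACSA2 libraries. With no minimum fold, 10 and 8 members passed the adjusted p, against 66.9% and 68% of genes.

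Set against the double-positive population, CaMKII differed in 3 of 10 members, where 45.2% of genes were called. Hspb1 was higher by a log2FC of 4.77 ± 0.38 (edgeR adjusted p = 6.45e-17), while Dnajb1 was lower at -2.06 ± 0.19 (adjusted p = 9.36e-15) and Hspa5 at -1.64 ± 0.12 (adjusted p = 1.57e-18). The same 3 members were called against CD11b, where 45.5% of genes were, at 5.32 ± 0.38, -1.83 ± 0.18 and -1.55 ± 0.12. Hspa1a and Hspa1b, on the other hand, did not pass the test between CaMKII and either population.

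Between the double-positive and CD11b populations, which carried like amounts of microglia markers, 0 of 10 members were called by edgeR or by DESeq2, where 7.98% of genes were called. At an unadjusted p under 0.05 there was 1 member by either tool, where 23.5% of genes had one by edgeR and 19.7% by DESeq2, and in edgeR it was Hsph1, at a log2FC of 0.61 ± 0.29 (unadjusted p = 0.0399, adjusted p = 0.184).

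Hspb1 was set beside the endothelial markers, whose 8 genes summed to 4159 to 11732 CPM in CaMKII, 161 to 1567 in ACSA2, 65.9 to 716 in double-positive and 63.8 to 194 in CD11b. Hspb1 came to a median of 2.76% of that sum in CaMKII, 3.60% in ACSA2, 3.55% in double-positive and 2.88% in CD11b. From library to library that share ran from 1.99% to 4.98% in CaMKII, 2.07% to 6.53% in ACSA2, 0.424% to 15.9% in double-positive and 1.64% to 11.5% in CD11b, a wider range than that of the medians. Over the libraries of a single population (4 relations, chosen after the values were seen), Pearson r between the log2 levels was 0.85 in ACSA2 (permutation p = 4.00e-05, adjusted p = 0.00016, Spearman rho 0.54 with adjusted p = 0.0653) and 0.63 without the 2 libraries farthest from the median endothelial sum. In double-positive r was 0.64 (permutation adjusted p = 0.0316), which rested on 2 libraries, since r was 0.14 without them, and within batch 3 it was -0.20. The double-positive library of mouse 10 held 716 CPM of endothelial markers and 22.4 CPM of Hspb1, both the highest of that population. By Spearman rho no population passed, at 0.42 in CaMKII, 0.51 in double-positive and 0.52 in CD11b (permutation adjusted p = 0.232, 0.0653 and 0.0653). CaMKII and CD11b gave r of 0.61 and 0.53 (permutation adjusted p = 0.0575 and 0.0563), and 0.12 and 0.32 without the 2 farthest libraries. Within batch 3, r was 0.77 in CaMKII, 0.67 in ACSA2 and 0.49 in CD11b, none past an adjusted permutation p of 0.05 (smallest 0.0994), and the ACSA2 value turned to -0.55 without the 2 farthest libraries, so it rested on them. The part of endothelial RNA in the level of Hspb1 was not tested.

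**Figure D2:**
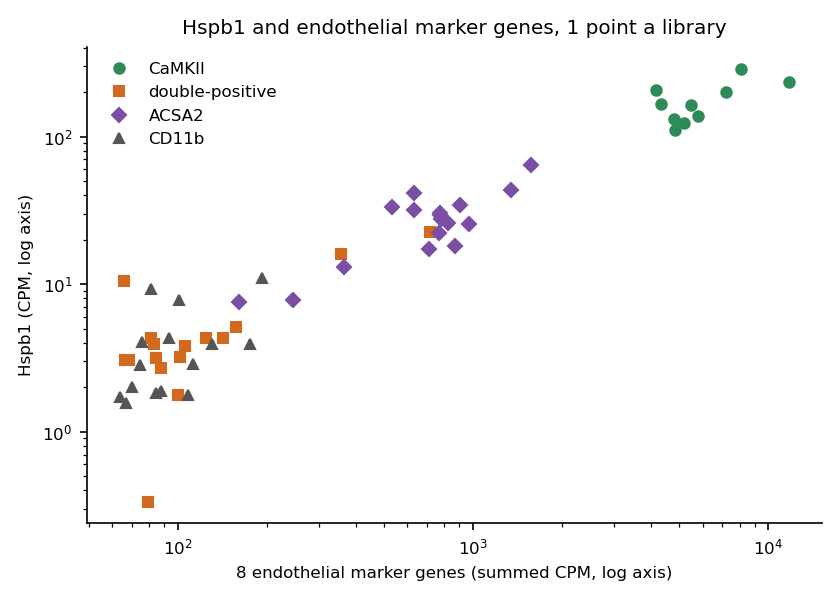
Hspb1 CPM against the summed CPM of 8 endothelial markers in the 58 libraries, both on log axes and coloured by population. CaMKII libraries lie at the upper right, ACSA2 libraries in the middle, and double-positive and CD11b libraries at the lower left.

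Other genes of protein folding, drawn from lists, were described beside the members. Of 22 genes of endoplasmic reticulum chaperones and the unfolded protein response, 9 were higher and 1 lower in double-positive than in ACSA2, led by Sdf2l1 (log2FC 2.94 ± 0.25), a partner of BiP, and Herpud1 (2.35 ± 0.10), a factor of protein disposal at the endoplasmic reticulum, while Sil1, a nucleotide exchange factor of BiP, was lower (-1.08 ± 0.11). ACSA2 against CD11b gave 1 higher (Sil1) and 9 lower, and CaMKII against CD11b 1 higher (Trib3) and 7 lower. CaMKII against ACSA2 called 2 genes higher, Trib3 and Sdf2l1, and double-positive against CD11b called 0 of 22. As shares of the list, 45.5% were called in double-positive against ACSA2 and in ACSA2 against CD11b, 36.4% in CaMKII against CD11b and 9.09% in CaMKII against ACSA2, each below the share of all genes called (52.5%, 53.8%, 45.5% and 18.4%).

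Among 41 other cytosolic chaperones the directions were mixed. Fkbp5, a co-chaperone of Hsp90 and of the glucocorticoid receptor, was higher in double-positive than in ACSA2 by a log2FC of 5.61 and higher in CaMKII than in ACSA2 by 3.16 ± 0.27. Hspb8 and Cryab, small heat shock proteins, were lower in double-positive than in ACSA2, at a log2FC of -4.82 and -4.49, and higher in ACSA2 than in CD11b by 7.98 and 5.69. In double-positive against ACSA2, 4 of the 41 were higher and 5 lower, and in CaMKII against CD11b 6 were higher and 2 lower. These were 22% and 19.5% of the list, below the 52.5% and 45.5% of all genes called. Double-positive against CD11b called 2 of 41, Hspb8 (3.16) and Cryab (1.20), or 4.88% of the list beside 7.98% of all genes. Of 10 mitochondrial chaperones and proteases, Clpp alone was called in any comparison of populations, at 1.85 in ACSA2 against CD11b and -1.69 in double-positive against ACSA2. That was 10% of the list in each, below the 53.8% and 52.5% of all genes called. Of 4 heat shock factors, Hsf4 alone was called, higher in CaMKII than in double-positive by 2.40 ± 0.61 and than in CD11b by 2.52 ± 0.62. This made 25% of the list in each, below the 45.2% and 45.5% of all genes called. Hsf1, the factor that switches on the inducible genes, had medians of 53.9, 62.2, 51.5 and 59.9 CPM in CaMKII, double-positive, ACSA2 and CD11b.

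The comparison of burn with sham mice within each population was the question of the study. Hspa1a lay at 723 (mouse 2), 760 (mouse 20), 403 (mouse 22) and 587 CPM (mouse 24) in the 4 burn mice of the CaMKII population, and at 120 through a median of 443 to 1144 CPM in the 6 sham mice. In double-positive it ran from 33.3 through 315 to 989 CPM in burn mice and from 157 through 372 to 1380 CPM in sham mice. In CaMKII the 4 burn mice lay within the range of the sham mice, which held both the lowest and the highest library, and in double-positive burn and sham mice each held low and high libraries. ACSA2 burn mice ran from 26.1 through 76.9 to 158 CPM and sham mice from 12.2 through 48.2 to 138 CPM, and CD11b burn mice from 79.4 through 280.0 to 935 CPM and sham mice from 55.2 through 468 to 1266 CPM. The ranges of burn and sham mice overlapped in all 40 combinations of a member and a population, as did those of 99.6% to 100% of all genes, so this says nothing particular about the members.

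In an edgeR fit per population with batch and treatment as terms, 0 of 10 members were called in each of the 4 populations. Of all genes 0 were called too, a background of 0% in each. At an unadjusted p under 0.05 there were 0 of 40 member tests by edgeR and 0 by DESeq2, the smallest being 0.0577 for Hspb1 in CD11b, while 1096 to 2984 of all genes were. DESeq2 called 3, 2, 27 and 80 of all genes in CaMKII, double-positive, ACSA2 and CD11b, none of them a member. The log2FC of burn against sham for Hspa1a was 0.37 ± 0.54 (SE; 95% interval -0.81 to 1.54) in CaMKII, -0.49 ± 0.57 (-1.67 to 0.70) in double-positive, 0.13 ± 0.34 (-0.57 to 0.83) in ACSA2 and -0.56 ± 0.41 (-1.39 to 0.28) in CD11b. Within batch 3 these values were 0.06, -0.28, 0.08 and -0.44. As folds, the intervals ran from 0.572 to 2.91 in CaMKII, 0.314 to 1.62 in double-positive, 0.676 to 1.78 in ACSA2 and 0.381 to 1.21 in CD11b.

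For the less variable members the intervals were narrower. Hspa5 gave 0.20 ± 0.11 (-0.02 to 0.42) in double-positive, 0.13 ± 0.10 (-0.08 to 0.34) in CD11b and -0.12 ± 0.11 (-0.35 to 0.11) in ACSA2. Hspb1 in CD11b had the lowest unadjusted p, at -0.75 ± 0.37 (-1.52 to 0.03, edgeR adjusted p = 0.651). In double-positive, the mean of Hspb1 was 7.22 CPM in burn and 3.85 CPM in sham mice, but the log2FC was -0.10 ± 0.46 with batch in the fit and 0.89 without it, since batch 1 there held 3 burn libraries (14.5 ± 8.76 CPM) and no sham library. The median log2FC of the 10 members was 0.02 in CaMKII, -0.12 in double-positive, -0.04 in ACSA2 and -0.13 in CD11b, beside 0.02, -0.0039, 0.05 and 0.00 over all genes, with 6, 2, 4 and 2 of 10 members above 0. A test of whether the burn effect differed among the populations called 0 of 10 members in edgeR (smallest adjusted p = 0.958, 0 at an unadjusted p under 0.05), where 0.00905% of 33150 genes were called. None of the lists of other chaperones, heat shock factors or early response genes had a gene called between burn and sham mice.

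**Figure D3:**
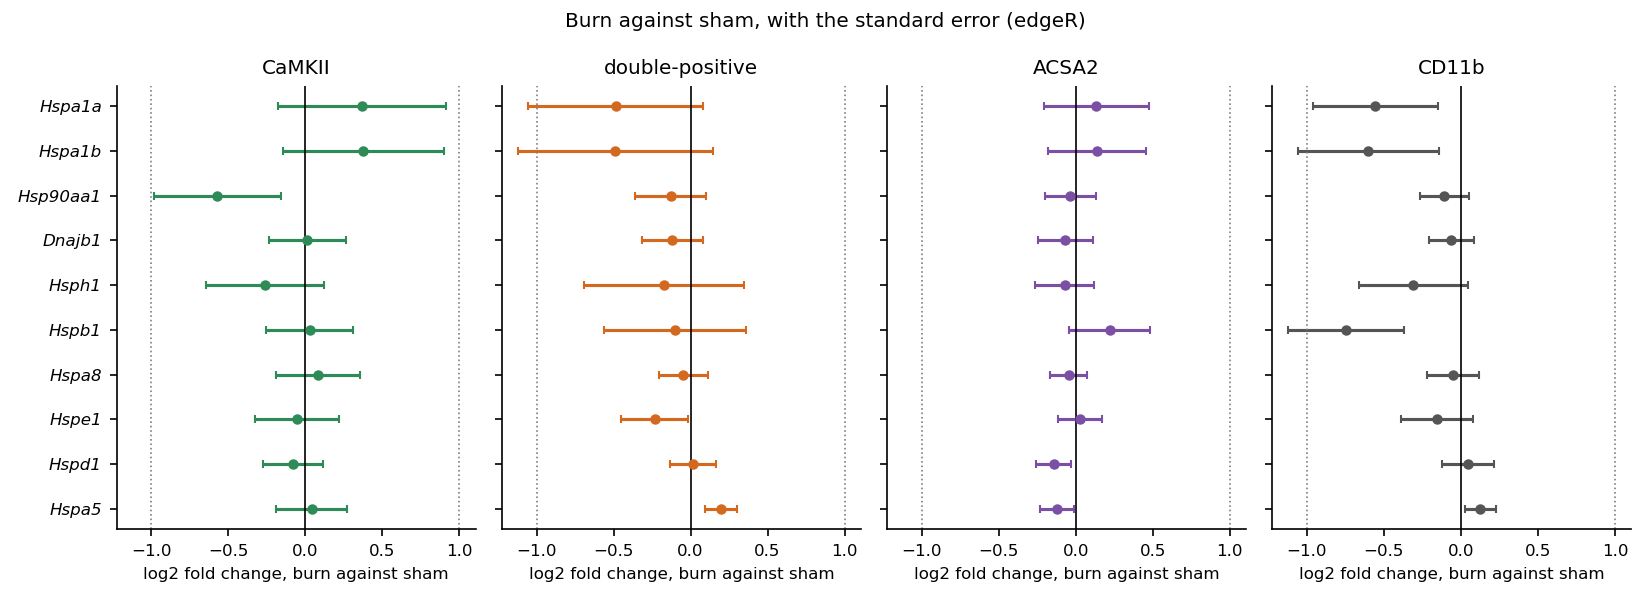
log2FC of burn against sham (x axis) for the 10 members in each population, from edgeR with batch in the fit, as points with a bar of 1 standard error to each side and dotted lines at the fold threshold. No value lies past a dotted line, and the bars of Hspa1a and Hspa1b are among the widest.

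Sequencing batch was the technical factor that the study names, and batch 3 was set against batches 1 and 2, averaged with equal weight, in the same fits. CaMKII had no library of batch 2, so its contrast was batch 3 against batch 1. No member was called in any population, where 0% (CaMKII), 1.12% (double-positive), 1.03% (ACSA2) and 0.399% (CD11b) of genes were. In the same order, 0, 2, 7 and 5 of 10 members had an unadjusted edgeR p under 0.05, where 5.37%, 21%, 17.1% and 14.7% of all genes did. DESeq2 called 0 members and gave 0, 3, 6 and 5 at an unadjusted p under 0.05, where 5.18%, 18.5%, 13.5% and 16% of all genes had one, and 0, 1, 4 and 1 members had a DESeq2 adjusted p of 0.05 or less at any fold. For that last cut no share of all genes was at hand, so these counts say nothing particular about the members. In ACSA2, Hsp90aa1 averaged 149 CPM in batch 1, 125 in batch 2 and 269 in batch 3, a log2FC of 0.90 ± 0.17 (edgeR adjusted p = 0.00791), and Hspe1 was higher in batch 3 by 0.67 ± 0.14 (edgeR adjusted p = 0.0167). Both lay under the fold threshold, and at any fold 2.32% of genes passed the adjusted p there, while Hsp90aa1 passed it at 1.00 without mouse 22. All 10 members had a log2FC above 0 in ACSA2, with a median of 0.46 beside -0.03 over all genes, but batch 3 did not lie above both other batches in each. Hspa1a averaged 101 CPM in batch 1, 20.5 in batch 2 (3 libraries) and 80.6 in batch 3, Hspb1 38.9, 14.3 and 27.5, and Hspa1b followed Hspa1a. In CD11b, Hspa1a stood at 1.86 ± 0.58 (edgeR adjusted p = 0.099) and Hspa1b at 2.16 ± 0.68 (edgeR adjusted p = 0.101), and both were called when no filter on low counts was applied (adjusted p = 0.00685 and 0.00695). Batch 2 was 1 library there, mouse 13, with 55.2 CPM of Hspa1a and 36.1 CPM of Hspa1b, and without it the log2FC was 0.46 ± 0.46 and 0.50 ± 0.52 (edgeR adjusted p = 0.70 and 0.72), so these values rested on that mouse. In double-positive, Hspb1 was called as lower in batch 3 without mouse 19 (log2FC -1.35, edgeR adjusted p = 0.0331) and with no filter (-1.06, edgeR adjusted p = 0.00711). CaMKII had 2 libraries in batch 1, mice 2 and 8, and without mouse 8 the log2FC of Hspa1a went from 0.39 to -0.29 and that of Hsp90aa1 from -0.64 to 0.28.

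The level of Hspa1a went with the mouse in some pairs of populations. Mouse 19, a sham mouse, had 1144 CPM in CaMKII, 1380 in double-positive, 138 in ACSA2 and 1266 in CD11b, the highest of its population in all but ACSA2, where it came second. Mouse 20, a burn mouse, had 760, 989, 121 and 935 CPM, and mouse 15, a sham mouse, 120, 157, 24.2 and 127 CPM. Not every mouse kept its rank. Mouse 18 came second in double-positive at 1048 CPM and next to last in ACSA2 at 22.8 CPM, and mouse 7 came last in double-positive at 33.3 CPM and eighth of 17 in ACSA2 at 76.9 CPM.

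**Figure D4:**
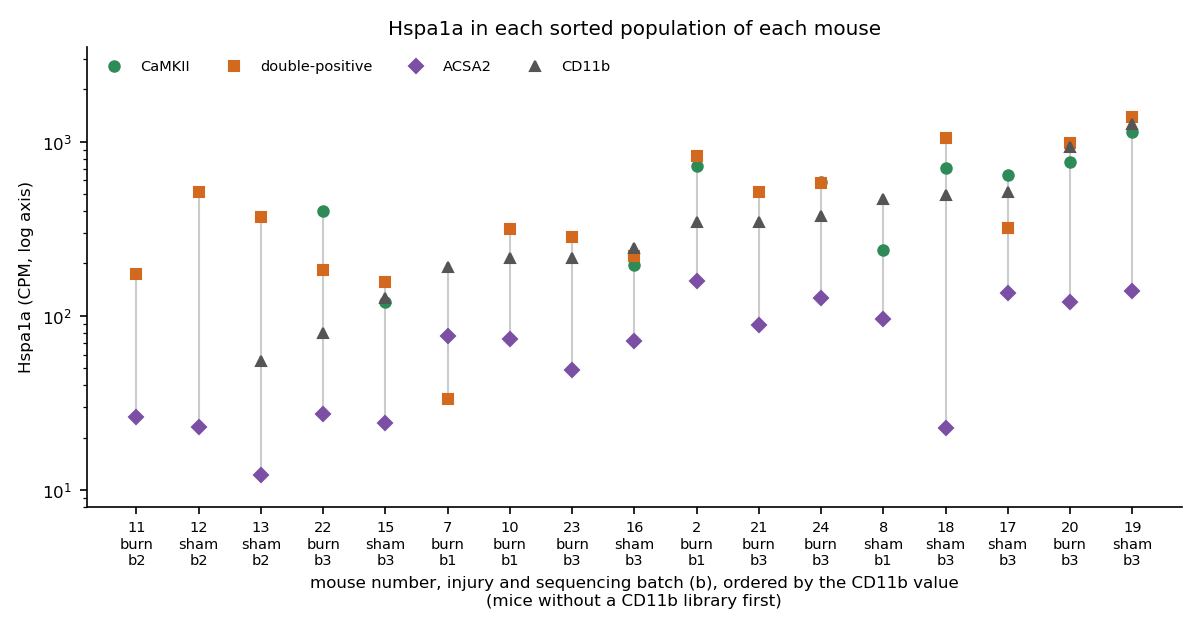
Hspa1a CPM (log axis) in each of the 17 mice, 1 symbol per sorted population joined by a line for the mouse, with injury and sequencing batch under the mouse number and mice ordered by their CD11b value, after mice 11 and 12, which had no CD11b library. ACSA2 is the lowest symbol in every mouse but mouse 7, and mouse 18 spans 1048 CPM in double-positive to 22.8 CPM in ACSA2.

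Over mice with both populations, 60 relations (10 members by 6 pairs of populations) were computed on log2 CPM. Of these, 15 passed an adjusted permutation p of 0.05 by Pearson r and 20 by Spearman rho, 58 had r above 0, and the median r was 0.59. Over 60586 pairs of a gene (mean of at least 5 CPM in both populations, a count in every library) and a pair of populations, the median r was 0.11 and 62.9% lay above 0. An r of at least 0.5 was reached in 39 of the 60 member relations and in 11.9% of those of all genes. The 60 relations are not independent, since several members vary together and the pairs reuse the same libraries. Hspa1a in CaMKII and double-positive, sorted from the same tube, gave r = 0.86 (n = 9, exact permutation p = 0.000408, adjusted p = 0.011) and rho = 0.92 (exact permutation p = 0.00131, adjusted p = 0.0182), with r = 0.87 without the 2 farthest mice and 0.85 within batch 3. In ACSA2 and CD11b, which also shared a tube, r was 0.74 (n = 15, permutation p = 0.00166, adjusted p = 0.0144) with rho 0.66 (permutation adjusted p = 0.0335), 0.83 without 2 mice and 0.70 within batch 3. Across tubes, double-positive and ACSA2 gave r = 0.25 (n = 16, permutation p = 0.366, adjusted p = 0.448), and double-positive and CD11b gave r = 0.61 (n = 14, permutation p = 0.0196, adjusted p = 0.0617) with rho 0.76 (permutation adjusted p = 0.0182), and r = 0.89 within batch 3. The other pairs across tubes were CaMKII and CD11b, at r = 0.67 (n = 10, permutation p = 0.0335, adjusted p = 0.0773) with rho 0.76 (permutation adjusted p = 0.044) and r = 0.77 within batch 3, and CaMKII and ACSA2, at r = 0.49 (n = 10, permutation p = 0.162, adjusted p = 0.236) with rho 0.59 (permutation adjusted p = 0.152) and r = 0.53 within batch 3. Without the 2 mice farthest from the median CaMKII level these were r = 0.55 and r = 0.26. The difference between pairs that shared a tube and pairs that did not was not tested.

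Hsph1 rose and fell over mice in double-positive and CD11b (r = 0.80, n = 14, permutation p = 0.00092, adjusted p = 0.0138, rho = 0.76, permutation adjusted p = 0.0182, r = 0.76 without 2 mice and 0.86 within batch 3). Hspd1 gave r = 0.73 in double-positive and ACSA2 (n = 16, permutation p = 0.00191, adjusted p = 0.0144), the one member past the threshold in that pair. Libraries of a mouse share the animal and its dissection, and the part of each was not tested.

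Each member was also set against the dissociation-induced early response, a list of 22 genes such as Fos, Jun and Ccl3 that holds no member. The list summed to 5576 to 9674 CPM in CaMKII, 20486 to 36217 in double-positive, 677 to 2949 in ACSA2 and 21444 to 33254 in CD11b. All 22 were higher in CaMKII and in double-positive than in ACSA2, where 18.4% and 52.5% of all genes were called, led by the chemokines Ccl4 (log2FC 5.54 ± 0.49 in CaMKII, 9.23 in double-positive) and Ccl3 (5.52 ± 0.38 and 9.27), and 19 of 22 were lower in CaMKII than in double-positive or CD11b, where 45.2% and 45.5% of all genes were called, led by Egr2 and Ccl3 against each. Between double-positive and CD11b, which carried like amounts of microglia markers, 0 of 22 were called by edgeR, where 7.98% of all genes were. The part of cell content in the level of this list was not tested.

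Within a population, 12 of 40 relations between a member and the summed list passed an adjusted permutation p of 0.05 by Pearson r and 1 by Spearman rho, 39 had r above 0, and the median r was 0.50. For all genes of at least 5 CPM the median r was -0.03 and 47.5% lay above 0. An r of at least 0.5 was reached in 8 of 10 members in CaMKII, 7 in double-positive, 4 in ACSA2 and 1 in CD11b, beside 14.6%, 10.9%, 7.18% and 2.89% of genes. Several members vary together, so the 40 relations are not independent. The count by rho depended on the setting, with 11 on CPM scaled by the trimmed mean of M-values (TMM), 7 within batch 3 and 1 with all deposited libraries. Double-positive held 6 of the 12 relations by r, Hspa1a, Hspa1b, Hsp90aa1, Dnajb1, Hsph1 and Hspa5. Within batch 3, where 10 mice remained, only Hspa5 of these 6 passed (permutation adjusted p = 0.0479), Hspa1a had an adjusted permutation p of 0.0687, and Hspb1 passed in their place (r = 0.73, permutation adjusted p = 0.0479). There Hspa1a gave r = 0.74 (n = 16, permutation p = 0.00084, adjusted p = 0.00672), rho = 0.66 (permutation adjusted p = 0.0644), r = 0.77 without 2 libraries and 0.72 within batch 3, and Hspa5 gave r = 0.78 (permutation p = 0.00053, adjusted p = 0.00672) with rho = 0.78 (permutation adjusted p = 0.0256), 0.76 without 2 libraries and 0.77 within batch 3. ACSA2 held 4, with Hspa1a at r = 0.73 (n = 17, permutation p = 0.00018, adjusted p = 0.00672, rho = 0.61, permutation adjusted p = 0.0644), 0.54 without 2 libraries and 0.75 within batch 3.

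CaMKII held 1, Hspb1, at r = 0.84 (n = 10, permutation p = 0.00261, adjusted p = 0.0116, rho = 0.78, permutation adjusted p = 0.0644), 0.61 without 2 libraries and 0.88 within batch 3. Hspa1a gave r = 0.69 in CaMKII (permutation p = 0.0281, adjusted p = 0.075, rho = 0.72, permutation adjusted p = 0.0828), with a permutation adjusted p of 0.0496 on TMM-scaled CPM. In CaMKII, mice 17 and 19 held the 2 highest early response sums (8929 and 9674 CPM). They also held the 2 highest endothelial sums (11732 and 8106 CPM) and Hspb1 levels (234 and 288 CPM). The part of cell content in the relation of Hspb1 was not tested. CD11b held 1, Hspa5, at r = 0.75 (n = 15, permutation p = 0.00149, adjusted p = 0.00993, rho = 0.58, permutation adjusted p = 0.092), 0.49 without 2 libraries and 0.84 within batch 3, while Hspa1a there gave r = 0.29 (permutation p = 0.288, adjusted p = 0.386). The points share their library total, since both axes are in CPM. With TMM 15 relations passed by r, among them all 12 above, and within batch 3 it was 10, of which 7 were among the 12. Dissociation was common to all libraries, and its part in the level of any member was not tested.

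**Figure D5:**
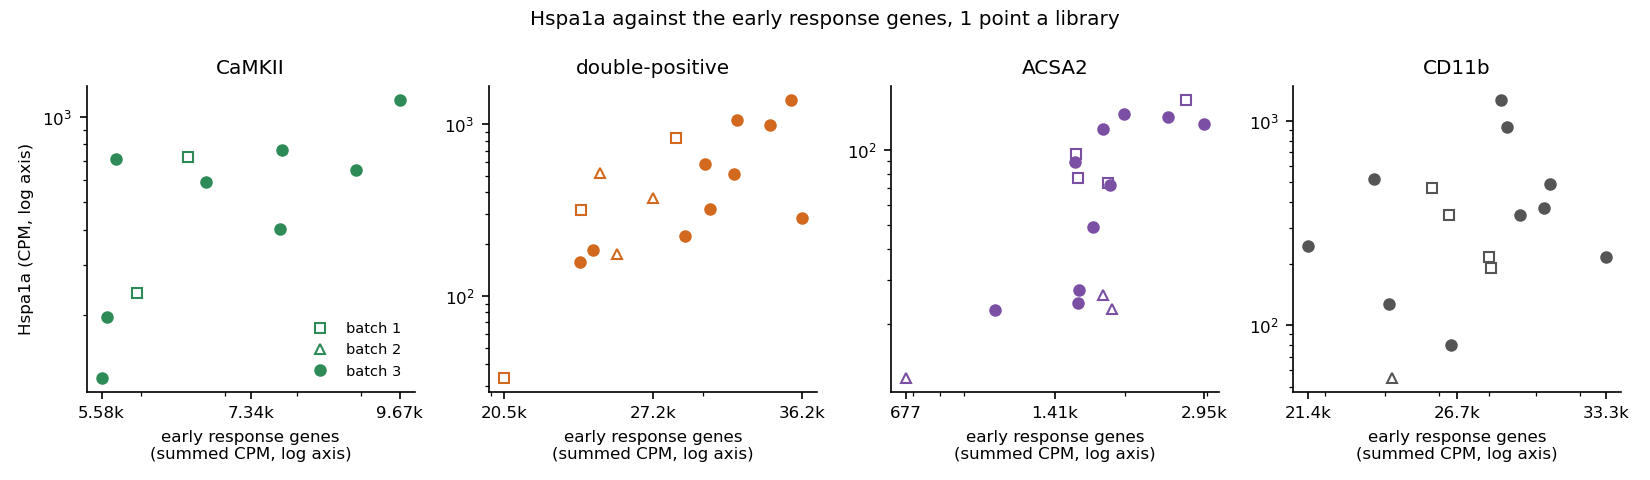
Hspa1a CPM against the summed CPM of the 22 early response genes, both on log axes, with 1 panel per population, 1 point per mouse and filled points for batch 3. Higher sums go with higher Hspa1a in double-positive (r = 0.74), ACSA2 (r = 0.73) and CaMKII (r = 0.69, permutation adjusted p = 0.075), and in CD11b the points are scattered (r = 0.29).

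Over the 58 libraries, the genes most like Hspa1a were found by Pearson r of log2(CPM + 1), centred on the mean of each population, batch and treatment, among 9081 genes with a mean of at least 5 CPM in every population. Among members r was 0.99 for Hspa1b, 0.90 for Hsph1, 0.86 for Hsp90aa1, 0.81 for Dnajb1, 0.71 for Hspd1 and for Hspa8, 0.52 for Hspe1 and 0.32 for Hspa5, beside a median of -0.02 and a 95th percentile of 0.352 over all genes. Hspb1 did not reach the minimum level in CD11b. Outside the members the leading 5 were Dnaja1 (0.85), an Hsp40, Gm15542 (0.77), Hsp90ab1 (0.76), the constitutive Hsp90, the cytokine gene Csf1 (0.76) and the early response gene Nr4a1 (0.74). Gm15542 gave 0.91 in CaMKII, 0.97 in double-positive and 0.84 in CD11b but 0.03 in ACSA2. These values describe libraries that share depth and handling, and 7 of the 58 libraries stood alone in their cell and carry no deviation.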

How the data were processed

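RNA of sorted cells was sequenced by the study as stranded, ribosome-depleted total RNA libraries. Alignment by the authors used STAR and the GRCm39 build, GenomicAlignments gave the counts, and raw read counts per gene were deposited in 4 tables. The strand setting of the counting is not given in the sources used here. The deposited tables of variance-stabilised values were not used, and 0 columns of per-sample values had no sample.

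Counts were turned into CPM over the library total. Tests used the quasi-likelihood test of edgeR 4.0.16 (R 4.3.3) with TMM normalisation on genes with at least 10 counts in total, in place of the DESeq2 of the study, and Benjamini-Hochberg adjustment over all genes tested. A gene counted as called when its log2FC was 1 or more in either direction and its adjusted p did not exceed 0.05. Burn was compared with sham within a population with batch as a covariate, and populations in 1 fit of 58 libraries. DESeq2 1.42.0, other scalings and filters, batch 3 alone, all deposited libraries and each mouse left out were alternatives. Where a mouse was left out of the 58-library fit, the dispersion trend of the full fit was kept and the quasi-likelihood spread estimated anew. Correlations used scipy 1.17.1 with 100000 resamples, or all orders under 10 mice. Scripts were tested on simulated data.

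Libraries of different populations came from the same mice, so mouse was the pairing and its block an alternative. Deviations of 74 same-mouse pairs of libraries had a median r of 0.09, beside -0.01 for 1173 pairs of different mice.

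All 10 members were tested in every comparison, and the text prints values for only some of them. Of every other list, the 2 called genes with the largest change in each direction were eligible to be named, and so were the 5 genes most like Hspa1a. Of the endoplasmic reticulum list 22 of 23 genes matched 1 row. The members and lists were chosen with earlier results of these data known. Exon lengths and shared 50-base windows came from GENCODE M21 (GRCm38), and promoters from RefSeq (GRCm38.p6), since no GRCm39 annotation was used here. Floors cover counting error only, and the intervals of burn against sham come from the fit over mice.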

Additional observations from a re-analysis of the deposited data

Results flagged for a closer look

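Of 80 groups of 4 to 9 libraries, 3 had a library that stood far from the others by Dixon's test at 95%, where chance gives about 1 in 20. In the double-positive burn mice, mouse 7 was lowest at 23.9 CPM of Hspa1b, with 163 CPM in the nearest mouse, and at 121 CPM of Dnajb1, with 244 CPM in the nearest. In the CD11b sham mice, mouse 19 was highest at 87.8 CPM of Hspd1, with 54.0 CPM in the nearest.

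The left-out libraries held 50 member values, of which 7 lay above the highest sham library of their population. They all came from burn mouse 3. In double-positive they were Hsp90aa1 at 482 CPM (highest sham 474), Dnajb1 at 487 CPM (417), Hspa8 at 2060 CPM (1891) and Hspd1 at 72.7 CPM (69.9). In ACSA2 they were Hspb1 at 74.5 CPM (41.3) and Hspa8 at 1299 CPM (1256), and in CaMKII Hspb1 at 293 CPM (288). Burn libraries in use also lay above the highest sham library in Dnajb1 (433 CPM, mouse 2) and Hspd1 (76.2 CPM, mouse 20) in double-positive. In ACSA2 they did so in Hspa8 (1354 CPM, mouse 24) and Hspb1 (64.6 CPM, mouse 2). None did in Hsp90aa1 or Hspa8 in double-positive or in Hspb1 in CaMKII. The share of all genes was not counted, and the differences were not tested.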

How the results depend on the processing

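Of 130 counts of members called under another setting, 125 stayed within 1.5 times the main count, and of 235 counts without 1 mouse, 233 did. With no minimum fold, the count went from 5 to 10 in double-positive against ACSA2, from 5 to 8 in ACSA2 against CD11b and from 0 to 2 for batch in ACSA2. With no filter on low counts it went from 0 to 2 for batch in CD11b and from 0 to 1 for batch in double-positive. Without 1 mouse, the batch counts ran from 0 to 1 in ACSA2 (1 without mouse 22) and from 0 to 1 in double-positive (1 without mouse 19, Hspb1 at -1.35). The cause was not tested.

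No paired analysis was possible for burn against sham because burn and sham mice are different mice. With mouse as a replicate block, Dnajb1 in CaMKII against ACSA2 stood at 0.96, under the fold threshold, and no other call on a member changed. Under library size alone the median of all genes moved by 0.17 in CaMKII against ACSA2, 0.12 against double-positive and 0.11 against CD11b. With batch 3 alone it moved by -0.18 in ACSA2 against CD11b and -0.13 in double-positive against CD11b, and with all deposited libraries by 0.23 for burn in double-positive.

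Counts of all genes called changed by more than 1.5 times in these cases. With no minimum fold they were 648, 458 and 1589 for batch in ACSA2, CD11b and double-positive, against 288, 104 and 298, and 10861 against 6104 in CaMKII against ACSA2. DESeq2 called 27, 80, 3 and 2 genes for burn in ACSA2, CD11b, CaMKII and double-positive and no filter 4 and 14 in ACSA2 and double-positive, against 0, and all deposited libraries gave 136 for burn in double-positive. For batch, DESeq2 gave 612 in ACSA2, 417 in CD11b and 111 in CaMKII, no filter 571, 180 and 558 in ACSA2, CD11b and double-positive, and all deposited libraries 442, 58 and 8, against 288, 104, 0 and 298. Double-positive against CD11b went from 2647 to 1056 with batch 3 alone and 1529 with the block.

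The relations with the early response passed by r in 10 cases within batch 3 alone (7 of the 12) and in 13 with all deposited libraries (all 12), against 12, and by rho in 11 with TMM and 7 within batch 3, against 1. Those between populations passed in 18 with TMM, 19 within batch 3 and 18 with all deposited libraries, against 15, of which 14, 13 and 14 were among the 15.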

Other observations

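Among the other lists, a few genes differed by sequencing batch. In ACSA2, batch 3 was higher than batches 1 and 2 in 2 of 22 early response genes, where 1.03% of all genes were called, Socs3 (log2FC 1.76 ± 0.32, edgeR adjusted p = 0.00671), a feedback inhibitor of cytokine signalling, and Zfp36 (1.15 ± 0.22, edgeR adjusted p = 0.00943), which destabilises inflammatory mRNAs and stood at 0.98, under the fold threshold, without mouse 13. In CD11b, where 0.399% of all genes were called, the small heat shock protein Hspb6 was higher in batch 3 (2.21 ± 0.51, edgeR adjusted p = 0.0308), a value that rested on mouse 13, since it was 0.53 (edgeR adjusted p = 0.538) without it, and the adjusted p was 0.0514 without mouse 17. In double-positive, where 1.12% of all genes were called, Hspa12b, an Hsp70 relative known from endothelial cells, was lower (-2.18 ± 0.53, edgeR adjusted p = 0.0186), with an adjusted p of 0.0684 without mouse 10.

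Hspa12b was also higher in CaMKII than in double-positive by a log2FC of 5.62 ± 0.51 and than in CD11b by 6.87 ± 0.53 (edgeR adjusted p = 1.10e-14 and 1.94e-17), as Hspb1 was. Trib3, a pseudokinase induced by the unfolded protein response, was higher in CaMKII than in ACSA2 by 3.25 ± 0.88 (edgeR adjusted p = 0.00256) from a low level, a mean of 3.33 ± 2.29 CPM in CaMKII (n = 10) and 0.377 ± 0.474 CPM in ACSA2 (n = 17).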
